A study of Mus musculus with 15 samples.

Results

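Tetraspanins are small membrane proteins that cross the membrane several times and expose a short and a long loop outside the cell. They carry few signals of their own. They gather integrins, immunoglobulin-family proteins, metalloproteases and each other into patches of the membrane, and in this way set where those partners go and how long they stay there. In endocrine cells, members of the family sit at the cell surface, on secretory granules and on late endosomes.

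The expression of 9 tetraspanin genes was examined in the mouse pituitary gland. They were Tspan7, Cd63, Cd9, Cd81, Cd82, Cd151, Tspan3, Tspan13 and Tspan31, and they took 9 of the 55523 rows of the gene count matrix. Each row was found by its gene symbol. Where a symbol had several rows, the one with the most summed counts was to be taken, but each of the 9 symbols had a single row. The names were selected on values measured in these same libraries: summed counts decide the row of a symbol, and the list was drawn up when differences between the groups were already known. Which difference led to each name is not recorded. For that reason the values of the 9 genes are given as a description, without p-values.

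By CRISPR/Cas9 the study removed the enhancer (PE) that drives Nr5a1, the gene of a nuclear receptor of gonadotropes, in the pituitary, and RNA of whole glands was sequenced. The 4 groups compared were PE+/- males (n = 4), PE-/- males (n = 4), PE+/- females (n = 4) and PE-/- females (n = 3). All 15 libraries came from mice with at least 1 deleted copy of the PE, because the controls were heterozygous, and no wild-type gland was compared. The deletion was made in fertilized eggs and inherited, so every tissue of the PE-/- mice lacked the PE, and effects within the gland cannot be told apart from effects that reach it from other organs. The age of the mice and their stage of the estrous cycle are not given in the sources used here.

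Each library summed to between 12982794 and 30238443 counts. The levels of Xist and Ddx3y matched the labelled sex in 15 of 15 libraries. Nr5a1 had between 431 and 1138 counts in the PE+/- libraries and between 0 and 29 in the PE-/- libraries. Hormone and receptor markers of the 5 endocrine cell types of the anterior lobe were present in all groups, whereas the summed level of the posterior-lobe markers was at most 2.16 CPM (counts scaled to the size of the library) in females and at most 59.3 CPM in males. The labels name no batch. They also do not say whether each library was 1 gland, so that p-values measure the spread between these samples.

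In the mm10 annotation the 9 genes lay on 7 chromosomes. Tspan7 lay on chromosome X from 10485158 to 10596605 on the plus strand, and its exons covered 7067 bp. Cd63 lay on chromosome 10 from 128900989 to 128912822 on the plus strand, with 3682 bp of exon. Tspan13 lay on chromosome 12 from 36014557 to 36042500 on the minus strand, with 2474 bp of exon. Tspan31 shared chromosome 10 with Cd63, and Cd81 and Cd151 shared chromosome 7. The mapped exons of 4 of the 9 genes overlapped a gene on the opposite strand. The overlap took 29.2% of the exons of Tspan31, which runs tail to tail into the cell cycle kinase gene Cdk4, 10.7% of those of Cd9, 7.04% of those of Cd151 and 3.61% of those of Cd81. Reads of such partners cannot be told apart where strand was not used in counting. Cd63 also has a processed pseudogene, Cd63-ps, of near-identical sequence.

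The upstream sequences of the 3 genes that stood apart in PE+/- females, Tspan7, Cd63 and Tspan13, are shown because members that share a pattern may be compared at their promoters. They are the 250 bases before the RefSeq start in GRCm38.p6, written in the direction of the gene. Capitals mark AGGTCA, the core hexamer read by many nuclear receptors, and GGGCGG, the core of the GC box, on either strand.
Tspan7, chrX:10484866-10485115, plus strand: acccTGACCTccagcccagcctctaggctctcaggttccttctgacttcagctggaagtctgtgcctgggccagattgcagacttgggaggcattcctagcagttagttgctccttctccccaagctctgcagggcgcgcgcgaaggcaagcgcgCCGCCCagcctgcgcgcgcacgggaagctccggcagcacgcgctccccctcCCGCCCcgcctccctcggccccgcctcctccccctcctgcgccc
Cd63, chr10:128909095-128909344, plus strand: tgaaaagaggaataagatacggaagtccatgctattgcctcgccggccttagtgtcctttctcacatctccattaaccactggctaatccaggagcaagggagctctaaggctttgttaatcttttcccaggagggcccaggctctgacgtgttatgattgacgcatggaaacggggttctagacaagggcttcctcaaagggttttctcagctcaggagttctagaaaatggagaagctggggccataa
Tspan13, chr12:36042479-36042728, minus strand: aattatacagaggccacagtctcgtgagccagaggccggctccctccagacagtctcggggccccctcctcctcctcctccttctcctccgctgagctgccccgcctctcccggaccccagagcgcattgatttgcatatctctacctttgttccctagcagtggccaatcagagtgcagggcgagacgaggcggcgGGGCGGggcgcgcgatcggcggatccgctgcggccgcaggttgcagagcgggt

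The windows of Tspan7 and Tspan13 were rich in G and C, and that of Cd63 was not. The share of G and C was 69.2% upstream of Tspan7, 66.0% upstream of Tspan13 and 48.8% upstream of Cd63, against a median of 52.4% over 32851 such windows of the mouse genome. The window of Tspan7 held 1 core hexamer, read on the minus strand at -246, and GC boxes at -95 and -44. The window of Tspan13 held a GC box at -53. Neither motif was found in the window of Cd63, which ends 8356 bp downstream of the first start that the annotation gives for this gene and so belongs to an internal start. The hexamer occurred in 14.0% of all windows and the GC box in 32.7%. Members without this pattern held the same letters. The hexamer was also found upstream of Cd151, at -245, and GC boxes upstream of Cd9, Cd81, Cd82 and Cd151. Neither was found upstream of Tspan3 or Tspan31. The start behind the window of Tspan3 lay 4407 bp downstream of the first annotated start, so that window too belongs to an internal start. Cd82 had 4 windows and Cd151 had 2, of which the nearest to the annotated start was used. The share of G and C was 61.6% for Cd9, 65.6% for Cd81, 58.4% for Cd82 and 62.4% for Cd151. It was 52.4% for Tspan3 and 46.0% for Tspan31. Each match is a description of the letters only. The longer site of NR5A1, CAAGGTCA, which contains the hexamer, occurred in 1.33% of all windows, and the palindromic consensus of the estrogen response element in 0.0639%. Neither was found in the windows of the 9 genes.

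Levels were scaled by the trimmed mean of M-values to CPM. Genes were ranked against each other only per kilobase of exon. On that scale the 9 genes included 8 of the 10 highest levels of the family. Tspan13, a tetraspanin first described through sequence databases and reported to act on voltage-gated calcium channels, had the highest mean at 510 CPM per kb. Cd81, a partner of immunoglobulin-family proteins on most cell types, followed at 328 CPM per kb. The means were 152 for Tspan31, 130 for Tspan3, 77.2 for Tspan7, 57.5 for Cd63, 48.0 for Cd9, 34.1 for Cd82 and 23.4 for Cd151, all in CPM per kb over 15 libraries. Among the other tetraspanins, Tspan12, a coreceptor of the Wnt and norrin receptor Fzd4, reached 109 CPM per kb, and Rom1, known from photoreceptors, reached 43.7.

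**Figure D1:**
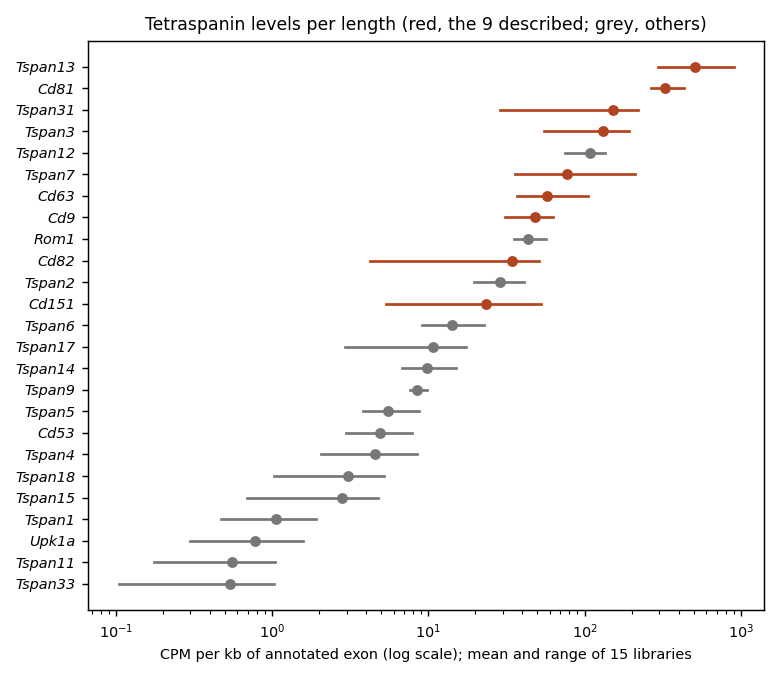
Level of each tetraspanin gene with counts in every library, in CPM per kb of annotated exon on a log axis. Points are means and lines the range over 15 libraries, red for the 9 genes described and grey for the others. Tspan13 and Cd81 lead with means of 510 and 328, and the longest red lines are those of Cd82 and Cd151.

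The share of the family's summed CPM, a quantity that is not per length and so weights long transcripts more, was for the 9 genes 80.1% ± 2.31 (SD, n = 4) in PE+/- males, 81.8% ± 2.06 (n = 4) in PE-/- males, 88.3% ± 1.80 (n = 4) in PE+/- females and 82.5% ± 0.794 (n = 3) in PE-/- females. Tspan7 alone took 18.4% ± 1.82 in PE+/- females, and between 7.04% and 7.57% on average in the other 3 groups.

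Tspan7 is an X-linked tetraspanin of neurons and of endocrine cells of the pancreatic islet, where it binds the scaffold protein PICK1 and takes part in receptor and granule traffic. In PE+/- females its level was 1024, 1110.0, 1011 and 1491 CPM. In PE-/- females it was 306, 342 and 314 CPM. In PE+/- males it was 255, 333, 312 and 365 CPM, and in PE-/- males it was 313, 297, 362 and 348 CPM. The 4 PE+/- females stood above every other library without overlap, and the ranges of the remaining 3 groups overlapped one another.

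The group means of Tspan7 were 1159 ± 226 CPM (SD, n = 4) in PE+/- females, 321 ± 18.8 (n = 3) in PE-/- females, 316 ± 46.2 (n = 4) in PE+/- males and 329.9 ± 29.9 (n = 4) in PE-/- males. On the log2 scale, PE-/- minus PE+/- was -1.86 (SE 0.17) in females and 0.06 (SE 0.13) in males. Females minus males was 1.88 (SE 0.17) in the PE+/- groups and -0.04 (SE 0.11) in the PE-/- groups. These comparisons share libraries, because each group entered 2 of them, and are not independent of each other.

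Cd63 is the tetraspanin of late endosomes, lysosomes and multivesicular bodies, and a common marker of exosomes. As for Tspan7, PE+/- females held the highest levels. Its level was 329, 388, 344 and 373 CPM in PE+/- females and 140.1, 141 and 143 CPM in PE-/- females. In PE+/- males it was 157, 173, 184 and 146 CPM, and in PE-/- males 136, 168, 176 and 178 CPM. Again the PE+/- females did not overlap any other group, and the 3 PE-/- females lay within 1.02-fold of each other.

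The log2 difference of Cd63 between genotypes was -1.35 (SE 0.12) in females and -0.0055 (SE 0.13) in males, and between females and males it was 1.12 (SE 0.12) in the PE+/- groups and -0.22 (SE 0.12) in the PE-/- groups. When the counts of Cd63-ps were added to Cd63, an alternative chosen after seeing the data, the difference in females was -1.33.

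Tspan13 had the same arrangement with a smaller step. It was at 1471, 1740.3, 2213 and 2229 CPM in PE+/- females and at 987, 1007 and 1081 CPM in PE-/- females. PE+/- males had 726, 1018, 1306 and 971 CPM, and PE-/- males 959, 957, 1024 and 1237 CPM. The lowest PE+/- female was above the highest library of the other groups. The log2 difference between genotypes was -0.91 (SE 0.17) in females and 0.05 (SE 0.18) in males, and that between sexes was 0.93 (SE 0.21) in the PE+/- groups and -0.02 (SE 0.12) in the PE-/- groups.

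**Figure D2:**
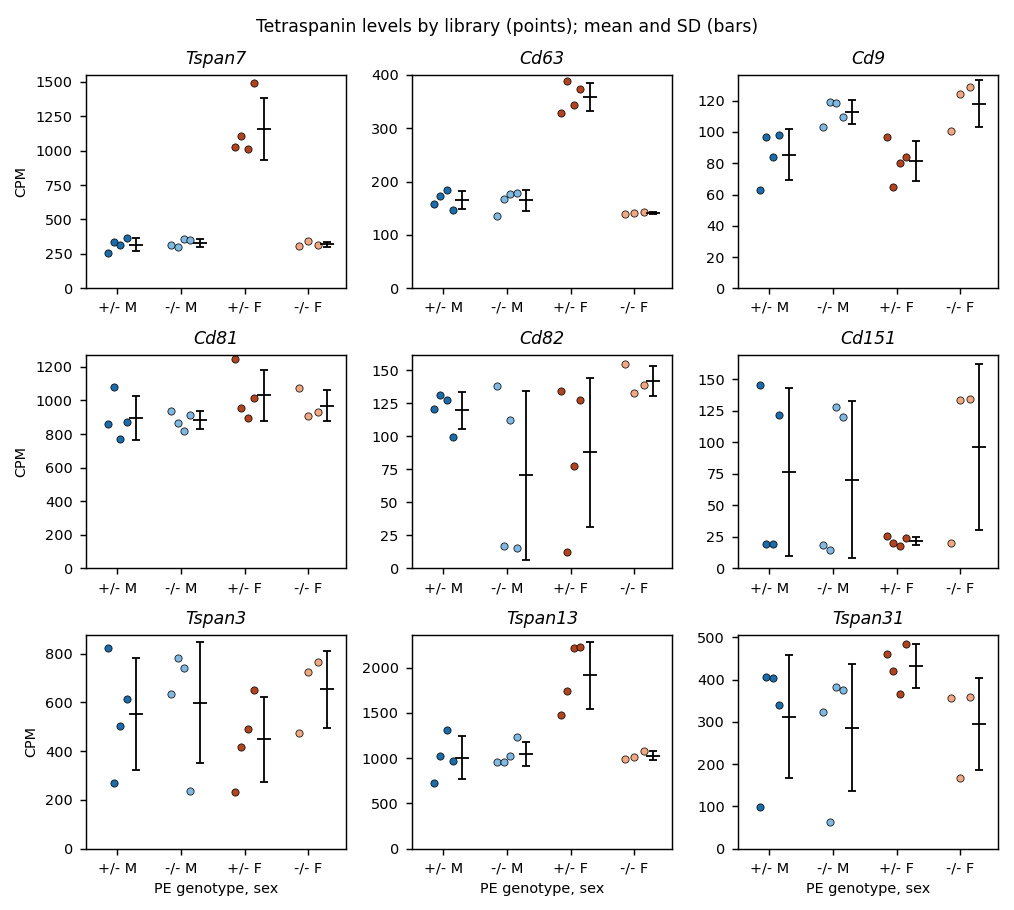
Level of each of the 9 genes in CPM on linear axes that start at 0, by PE genotype (+/- or -/-) and sex (M, males; F, females). Points are libraries, and the bar beside them gives the mean and SD of the group. For Tspan7, Cd63 and Tspan13 the 4 PE+/- females lie above all other libraries, Cd9 is higher in both PE-/- groups, and Cd82, Cd151, Tspan3 and Tspan31 have libraries far apart within a group.

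Over the 15 libraries the log2 levels of these 3 genes were correlated, with a Pearson r of 0.96 between Tspan7 and Cd63, 0.91 between Tspan7 and Tspan13 and 0.89 between Cd63 and Tspan13. After the mean of each group was taken out, the values were 0.26, 0.52 and 0.51. The points share their library and its scaling, and the 4 PE+/- females lie apart from the others. No p is given for them.

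The genes whose log2 level was most like that of Tspan7, out of 11929, were Crhbp (r = 0.98), which encodes a binding protein of corticotropin-releasing hormone, then Cd63 (0.96), Slc7a7, an amino acid transporter gene (0.95), Cox17, a copper chaperone of cytochrome oxidase (0.95), and Cryz, a quinone reductase (0.95). For Cd63 they were Rab3d, a GTPase of secretory granules (0.97), Cd63-ps (0.97), Cgref1 (0.97), Cryz (0.96) and Tmed3, a cargo receptor of the early secretory pathway (0.96). Within groups, r with Cd63 was between 0.68 and 0.77 for Rab3d, Cgref1, Tmed3 and Cd63-ps, and 0.38 for Cryz. For the 5 genes most like Tspan7 it was between 0.26 and 0.56. Because Cd63 and Cd63-ps are near-identical in sequence, their reads may not be told apart, and nothing is read from the r between them.

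Prl, the hormone gene of the lactotrope, differed between the female genotypes beside Tspan7, Cd63 and Tspan13. The summed level of its 5 markers, Prl, Drd2, Angpt1, Agtr1a and Esr1, was between 22461 and 35985 CPM in PE+/- females and between 4941 and 6149 CPM in PE-/- females. Of the 5 markers, 1 passed the test there, with Prl at -2.58 (SE 0.21, edgeR quasi-likelihood test, Benjamini-Hochberg adjusted p = 0.00698), and 2 were higher and 3 lower in PE-/- females. Nearly all of the sum was Prl, whose level among females was 21945 to 35081 CPM for PE+/- and 4455 to 5598 CPM for PE-/-. Of the other markers, Drd2 was at 27.7 and 32.3 CPM on average in PE+/- and PE-/- females, Agtr1a at 35.0 and 55.8 CPM, Angpt1 at 247 and 116 CPM, and Esr1 at 408 and 346 CPM. In males the same sum ranged from 12999 to 31962 CPM in PE+/- and from 5238 to 41839 CPM in PE-/-.

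The levels of Tspan7 and Cd63 are given beside the highest lactotrope sum of each male genotype. Whether they followed the sum across libraries was not tested. PE-/- male replicate 4 had the highest sum of all 15 libraries, 41839 CPM, with Tspan7 at 348 CPM and Cd63 at 178 CPM. PE+/- male replicate 1 had a sum of 31962 CPM, within the range of the PE+/- females, with Tspan7 at 255 CPM and Cd63 at 157 CPM. Both libraries also stood apart from their groups in the hormone subunit gene Cga. PE-/- male replicate 4 had 1344 CPM of it, against 6370 to 6717 CPM in the other PE-/- males. PE+/- male replicate 1 had 12921 CPM, against 5010 to 8797 CPM in the other PE+/- males. In a whole gland, fewer cells of a type and less RNA per cell cannot be told apart. Levels of other marker lists are given beside them. The 5 gonadotrope markers all had a negative log2 difference between genotypes, from -7.19 to -0.70 in males and from -5.72 to -0.37 in females. By edgeR 3 of the 5 passed in each sex, where 0.132% of all genes passed in males and 1.05% in females. The summed level of 5 pericyte and fibroblast markers was between 521 and 1041 CPM in PE+/- females and between 416 and 496 CPM in PE-/- females, with Rgs5 at -1.21 (SE 0.29, edgeR adjusted p = 0.1) and the other 4 between -0.10 and 0.30. It was also lower without overlap in PE-/- males, at 372 to 544 CPM against 610 to 741 CPM, where Tspan7, Cd63 and Tspan13 overlapped. All 4 somatotrope markers had a positive log2 difference between the female genotypes, from 0.62 to 1.01, and their sums of 59357 to 104791 CPM for PE+/- and 86323 to 174535 CPM for PE-/- overlapped. All 5 erythroid markers had a negative one, from -1.83 to -0.62, and their sums of 570 to 1345 CPM and 384 to 790.1 CPM overlapped too. No gene of the pericyte and fibroblast, somatotrope or erythroid lists passed the threshold. The part of any of these markers in the difference between females was not tested.

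**Figure D3:**
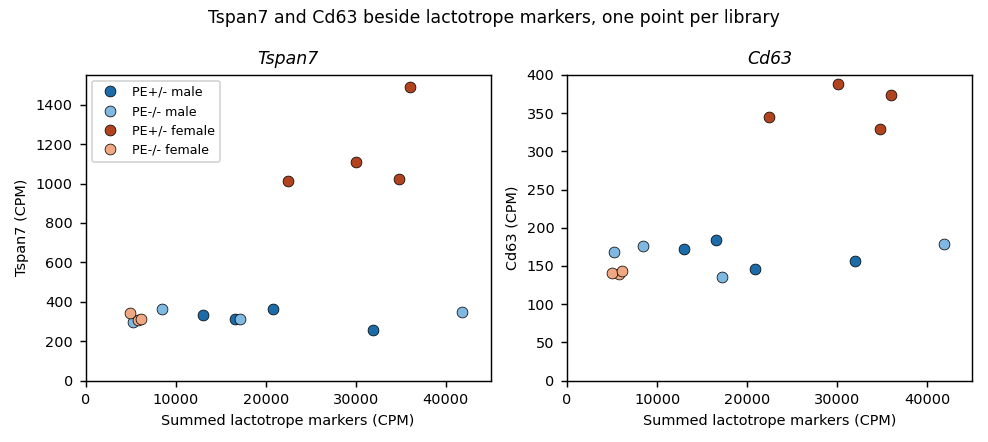
Level of Tspan7 (left) and Cd63 (right) in CPM against the summed level of 5 lactotrope markers in CPM, 1 point per library, coloured by group. The 4 PE+/- females lie at the top, while PE-/- male replicate 4, at a sum of 41839, and PE+/- male replicate 1, at 31962, lie at the level of the other males.

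Cd9 organises adhesion and fusion at the cell surface and, together with Cd81, marks a subset of the stem and supporting cells of the anterior pituitary. It was at 96.7, 65.1, 80.0 and 84.2 CPM in PE+/- females and at 100.7, 125 and 129 CPM in PE-/- females. In PE+/- males it was at 63.0, 96.7, 83.8 and 98.2 CPM and in PE-/- males at 103, 119, 119 and 109.7 CPM. In both sexes every PE-/- library was above every PE+/- library, although the gap was narrow, from 96.7 to 100.7 CPM in females and from 98.2 to 103 CPM in males.

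The log2 difference of Cd9 between genotypes was 0.40 (SE 0.15) in males and 0.53 (SE 0.17) in females, and did not pass the threshold in either. With the counts of Gm26728, the gene that overlaps it on the opposite strand, added to it, the differences were 0.32 and 0.63. The summed level of 6 stem and folliculostellate markers, Sox2, Sox9, S100b, Cyp2f2, Aldh1a2 and Fxyd1, was between 250.02 and 415 CPM in PE+/- males and between 383 and 527 CPM in PE-/- males. In females it was between 232 and 580.4 CPM in PE+/- and between 451 and 558 CPM in PE-/-. By edgeR's quasi-likelihood test none of its 5 tested genes passed in either sex, and those with an unadjusted p under 0.05 numbered 1 among males and 2 among females, where 6.13% and 16.1% of all genes had one. All 5 tested genes had a positive log2 difference between PE-/- and PE+/- in both sexes. It ran from 0.19 to 0.46 in males and from 0.43 to 0.95 in females. Of all genes, 50.4% in males and 50.2% in females had a positive one. The part of these markers in the values of Cd9 was not tested.

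Cd81, which shares partners with Cd9, was the steadiest of the 9 genes. It was between 897 and 1248 CPM in PE+/- females, between 906 and 1072 in PE-/- females, between 768 and 1080 in PE+/- males and between 820 and 940.1 in PE-/- males. Its coefficient of variation over the 15 libraries was 12.8%, and all 4 ranges overlapped. The log2 difference between genotypes was -0.02 (SE 0.12) in males and -0.10 (SE 0.15) in females.

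Cd82, Cd151, Tspan3 and Tspan31 had libraries far apart within some of the groups. Cd82, a tetraspanin known as a suppressor of metastasis, was at 135, 12.7, 77.4 and 127 CPM in PE+/- females and at 138, 16.9, 112 and 15.1 CPM in PE-/- males. The other 2 groups held 99.8 to 131 CPM in PE+/- males and 133 to 154 CPM in PE-/- females. Thus 3 libraries, 1 PE+/- female and 2 PE-/- males, lay at 12.7 to 16.9 CPM, and the remaining 12 at 77.4 CPM or above.

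Cd151, the partner of laminin-binding integrins, fell into separate low and high libraries. It was at 25.3, 20.2, 18.1 and 24.02 CPM in PE+/- females and at 20.1, 134 and 134 CPM in PE-/- females. In PE+/- males it was at 145, 19.0, 19.6 and 122 CPM, and in PE-/- males at 18.2, 14.7, 128 and 120.1 CPM. The low level was shared by libraries of all 4 groups, and PE+/- females were the only group with all libraries at it.

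The log2 difference of Cd151 between genotypes in females was therefore 2.12 with a wide SE of 0.57, and in males it was -0.12 with an SE of 0.92. It did not pass the threshold in either. In females it passed by DESeq2, and by edgeR when PE-/- female replicate 1, the low library of its group, was left out. Without that library the remaining PE-/- females were all at the high level, so nothing is read from these calls.

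Tspan31, which is amplified together with Cdk4 in some sarcomas, was at 99 CPM or below in PE+/- male replicate 1 (98.6) and PE-/- male replicate 2 (63.5) and at 168 CPM in PE-/- female replicate 2. The other 12 libraries held between 322 and 485 CPM. Among females it ranged from 365 to 485 CPM in PE+/- and from 168 to 359 CPM in PE-/-. It was thus lower without overlap in PE-/- females, where 8.95% of all genes were. With the counts of Cdk4 added, its difference between genotypes was -0.02 in males and -0.51 in females, against -0.13 (SE 0.59) and -0.56 (SE 0.27) alone.

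Tspan3, a widely expressed member, ranged from 234 to 652 CPM in PE+/- females, from 473 to 766 in PE-/- females, from 271 to 823 in PE+/- males and from 238 to 782 in PE-/- males. The 4 ranges overlapped. Its log2 difference between genotypes was 0.11 (SE 0.42) in males and 0.54 (SE 0.33) in females.

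The widest ratio of highest to lowest library within a group was 10.6 for Cd82, 8.73 for Cd151, 6.01 for Tspan31 and 3.29 for Tspan3, and between 1.31 and 1.80 for the other 5 genes. Wide ranges of this kind were not rare in these data. Of 3568 genes with a mean of at least 50 CPM, 17.7% had a range of 5-fold or more within at least 1 group. The low libraries differed from gene to gene. PE-/- male replicate 2 was low for Cd82, Cd151 and Tspan31, whereas PE+/- male replicate 1 was low for Tspan31 and had the highest level of Cd151 and of Tspan3. The deposited rows are assembled loci, and the source of these ranges was not tested.

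**Figure D4:**
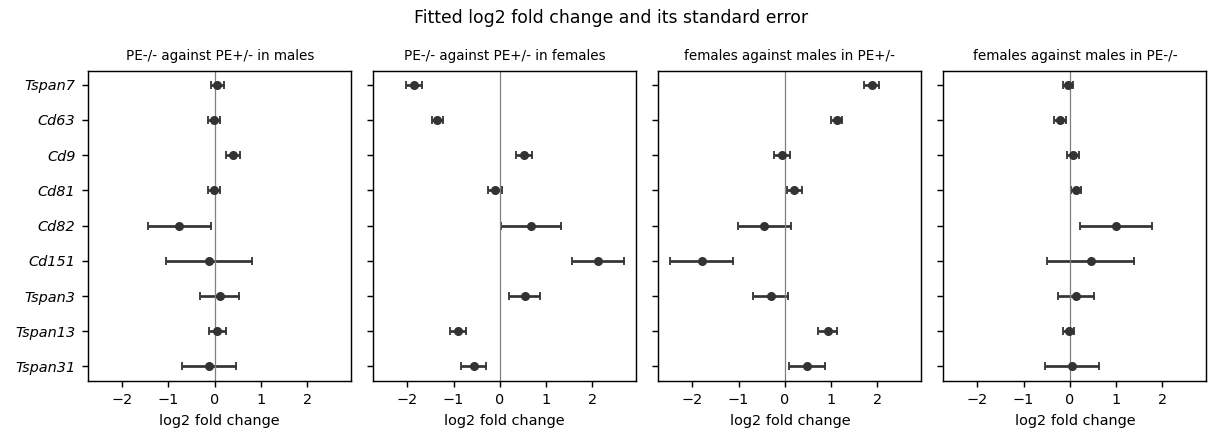
Fitted log2 fold change of each of the 9 genes in the 4 pairwise comparisons. Horizontal bars give a standard error derived from the F statistic of the test, and a vertical line marks 0. Tspan7, Cd63 and Tspan13 lie to the left in PE-/- against PE+/- females and to the right in females against males of PE+/-, and near 0 in the other 2 panels, while Cd82 and Cd151 have the widest bars.

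The counts past the threshold (edgeR quasi-likelihood test, adjusted over all genes tested, 0.05) are given beside the share of all genes, and nothing is read from them because the names were chosen with these differences known. In PE-/- against PE+/- females, 2 of the 9 genes passed and both were lower, Tspan7 and Cd63, where 1.05% of 18085 genes passed in either direction and 0.697% were lower. In PE-/- against PE+/- males, 0 of 9 passed, where 0.132% of 17392 genes did. In females against males of PE+/-, Tspan7 and Cd63 passed and were higher, where 0.67% of 17163 genes passed and 0.414% were higher. In females against males of PE-/-, 0 of 9 passed, where 0.0494% of 18217 genes did. At an unadjusted p under 0.05 the counts of the 9 genes were 1 between male genotypes, where 6.13% of all genes had one, 5 between female genotypes (16.1%), 4 between the sexes of PE+/- (13.5%), 0 between the sexes of PE-/- (3.37%) and 3 for the interaction of genotype and sex (10.1%). DESeq2 called none of the 9 between male genotypes or between the sexes of PE-/-. The 2 calls between PE-/- and PE+/- females were lost when PE-/- female replicate 3 was left out, with differences of -1.84 for Tspan7 and -1.35 for Cd63. That fit called 29 genes in all.

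The difference between the genotype effects of the sexes, as an interaction term over all 15 libraries, was -1.91 (SE 0.22) for Tspan7, -1.34 (SE 0.17) for Cd63 and -0.95 (SE 0.26) for Tspan13. The first 2 were among the genes past the threshold, where 0.161% of 19286 genes passed and 0.114% had a negative term. For Cd9 the term was 0.14 (SE 0.23) and for Cd81 it was -0.07 (SE 0.19). For Cd82 and Cd151 it was 1.45 (SE 1.03) and 2.25 (SE 1.21).

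Groups that did not overlap in CPM were counted in the same way. Between the female genotypes, 4 of the 9 genes were lower without overlap in PE-/-, Tspan7, Cd63, Tspan13 and Tspan31, where 8.95% of all genes were, and 1 was higher, Cd9, where 9.64% were. Between the male genotypes, Cd9 alone was higher without overlap, where 2.54% of genes were. Between the sexes, 3 were higher in PE+/- females, Tspan7, Cd63 and Tspan13, where 5.33% were, and in the PE-/- groups none of the 9 separated, where 2.53% of genes were higher and 2.71% lower in females.

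The rest of the family was tested. It is what remained after the members were taken out with differences between the groups already known. That choice can itself lower the number of calls among the rest. The counts below therefore cannot show whether the family as a whole differs between groups, and are given as a description. Of 24 other tetraspanins listed, 22 had a row and 17 or 18 passed the filter on low counts, depending on the comparison. In none of the 5 comparisons did any of them pass the threshold by edgeR's quasi-likelihood test. The number with an unadjusted p under 0.05 was 2 between male genotypes, 3 between female genotypes, 1 between the sexes of PE+/-, 1 between the sexes of PE-/- and 2 for the interaction. The shares of all genes with such a p were 6.13%, 16.1%, 13.5%, 3.37% and 10.1% in the same order. DESeq2 called 1 of them, Tspan18 in females, and 0 elsewhere. The median log2 difference of those tested was -0.05 in males and -0.08 in females, against a median of 0.0027 and 0.0018 over all genes.

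Tspan18, a tetraspanin of endothelial cells and platelets that acts on calcium entry, had the largest difference between genotypes in both sexes among these other tetraspanins at a mean of at least 5 CPM. It was at 8.43, 19.8, 17.6 and 19.3 CPM in PE+/- females and at 42.3, 33.4 and 36.7 CPM in PE-/- females. In PE+/- males it was at 23.9, 14.3, 21.02 and 17.1 CPM, and in PE-/- males at 38.0, 30.2, 25.8 and 29.1 CPM. In both sexes the PE-/- libraries were above the PE+/- libraries without overlap, where 9.64% of all genes were in females and 2.54% in males. Of the other tetraspanins tested, 2 were higher and 0 lower without overlap in PE-/- females. In PE-/- males 1 was higher and 1 lower, where 2.02% of all genes were lower.

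The log2 difference of Tspan18 was 1.20 (SE 0.29, edgeR adjusted p = 0.103) in females and 0.69 (SE 0.20, edgeR adjusted p = 0.487) in males, so that neither passed. In females it passed by DESeq2 (adjusted p = 0.00906), with 1 edgeR fit over all 15 libraries (adjusted p = 0.0235) and by edgeR without PE+/- female replicate 1, its lowest library (difference 0.98, adjusted p = 0.0453). The interaction was 0.51 (SE 0.36, edgeR adjusted p = 0.712), so no difference between the sexes was shown.

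Tspan12 was at 294 ± 49.2 CPM (SD, n = 4) in PE+/- females and 387 ± 16.7 (n = 3) in PE-/- females, and at 408 ± 48.0 (n = 4) and 356 ± 38.5 (n = 4) in PE+/- and PE-/- males. Its differences were 0.39 (SE 0.16, edgeR adjusted p = 0.291) between female genotypes and -0.47 (SE 0.16, edgeR adjusted p = 0.26) between the sexes of PE+/-. The order of the groups was thus unlike that of Tspan7, with the lowest mean in PE+/- females, but the interaction of 0.59 (SE 0.20, edgeR adjusted p = 0.306) did not pass.

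Cd53, a leukocyte tetraspanin, was between 5.18 and 13.7 CPM in all libraries. Its largest differences were -0.52 (SE 0.20, edgeR adjusted p = 0.267) between female genotypes, -0.66 (SE 0.27, edgeR adjusted p = 0.997) between the sexes of PE-/- and -0.81 (SE 0.34, edgeR adjusted p = 0.438) for the interaction.

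**Figure D5:**
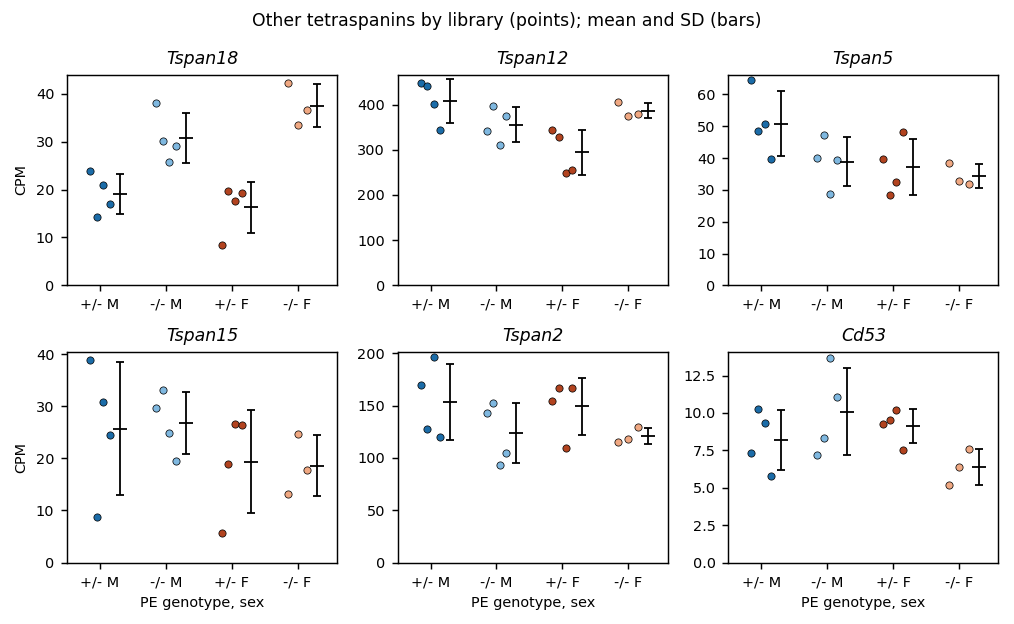
Level of 6 other tetraspanins in CPM on linear axes that start at 0, by PE genotype and sex, with 1 point per library and the mean and SD beside. Tspan18 is higher in the PE-/- libraries of both sexes, from 14.3 to 23.9 CPM against 25.8 to 38.0 CPM in males, and Tspan12 has its lowest mean, 294 CPM, in PE+/- females.

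The TspanC8 subgroup, whose members escort the metalloprotease ADAM10 out of the endoplasmic reticulum, had means over the 15 libraries of 10.8 CPM per kb for Tspan17, 9.84 for Tspan14, 5.51 for Tspan5, 2.80 for Tspan15 and 0.538 for Tspan33, against 23.4 for Cd151, the lowest of the 9 genes. Tspan5 was at 50.8 ± 10.3 CPM (SD, n = 4) in PE+/- males, 38.8 ± 7.66 (n = 4) in PE-/- males, 37.2 ± 8.71 (n = 4) in PE+/- females and 34.4 ± 3.68 (n = 3) in PE-/- females, and its difference between male genotypes was -0.39 (SE 0.20, edgeR adjusted p = 0.886). Tspan14, Tspan15 and Tspan17 had group means between 13.8 and 28.6 CPM, and Tspan33 between 1.83 and 4.01 CPM. Tspan15 was -0.53 (SE 0.26, edgeR adjusted p = 0.997) between the sexes of PE-/-. Tspan10, and the photoreceptor gene Prph2, had 0 counts in all libraries, against a floor of 12 counts, taken as about 3 fragments, in a library. The mRNA of ADAM10 was between 83.1 and 95.4 CPM in PE+/- females, at 95.2, 109 and 22.1 CPM in PE-/- females, and between 81.1 and 102 CPM in the males. Its lower mean in PE-/- females rested on replicate 3, since the other 2 libraries lay within or above the range of PE+/- females. The differences of Adam10 were -0.21 (SE 0.47, edgeR adjusted p = 0.896) in females and 0.05 (SE 0.12, edgeR adjusted p = 0.988) in males.

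Genes of proteins that bind tetraspanins were listed as 16 partners, of which 15 or 16 were tested. None passed in any of the 5 comparisons by edgeR or by DESeq2, and those with an unadjusted p under 0.05 by edgeR numbered 2 between male genotypes, 4 between female genotypes, 0 and 2 between the sexes of PE+/- and PE-/-, and 0 for the interaction. Of all genes, 6.13% between male and 16.1% between female genotypes had such a p. The shares were 13.5% and 3.37% between the sexes of PE+/- and PE-/-, and 10.1% for the interaction. Ptgfrn and Igsf8, the direct partners of Cd9 and Cd81, differed by 0.56 (SE 0.38, edgeR adjusted p = 0.54) and 0.23 (SE 0.26, edgeR adjusted p = 0.755) between female genotypes and by 0.23 (SE 0.28, edgeR adjusted p = 0.979) and 0.11 (SE 0.23, edgeR adjusted p = 0.988) between male genotypes. The integrin chain gene Itga6, chosen after its values were seen, was higher without overlap in PE-/- of both sexes, at 7.84 against 4.55 CPM for the male genotypes (0.78, SE 0.28, edgeR adjusted p = 0.686) and, with the same order, 12.3 against 5.94 CPM among females (1.04, SE 0.41, edgeR adjusted p = 0.27), where 2.54% and 9.64% of all genes were higher without overlap. Of the 16 partners, 1 was higher and 1 lower without overlap in PE-/- males, where 2.02% of all genes were lower, and 4 were higher and 0 lower in PE-/- females. The lower one was Timp1, a ligand of CD63 named after its values were seen, which had the largest fitted differences of the list in both sexes but at most 71 counts in any library. Its counts in the male libraries were 22 to 37 for PE+/- against 0, 14, 0 and 17 for PE-/-. Among the female libraries those of PE+/- held 0, 71, 21 and 33 counts and those of PE-/- 0, 29 and 0, so that they overlapped. Pick1, the partner of Tspan7, was at 41.8 CPM in PE+/- females and 35.1 CPM in PE-/- females, a difference of -0.26 (SE 0.14, edgeR adjusted p = 0.408).

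The list of 13 genes of lysosomes and multivesicular bodies, where Cd63 resides, had 13 tested members and none past the threshold in the 5 comparisons by edgeR. The numbers with an unadjusted p under 0.05 were 0 and 2 between male and female genotypes, 1 and 1 between the sexes of PE+/- and PE-/-, and 0 for the interaction, beside the shares of all genes given above. Lamp1, a major lysosomal membrane protein, was at 77.0 CPM in PE+/- and 78.1 CPM in PE-/- females, a log2 difference of 0.01 (SE 0.15, edgeR adjusted p = 0.981). Ctsd, the protease cathepsin D, was at 426 and 504 CPM, a difference of 0.23 (SE 0.17, edgeR adjusted p = 0.589). In males Lamp1 differed by 0.16 (SE 0.11, edgeR adjusted p = 0.954) and Ctsd by -0.15 (SE 0.12, edgeR adjusted p = 0.972). The median difference of the list between female genotypes was 0.06, where Cd63 was at -1.35. Rab27b and Scarb2, chosen after their values were seen, lay furthest from 0 there. Rab27b, a GTPase of granule docking, was at 52.4 CPM in PE+/- and 89.4 CPM in PE-/- females (0.76, SE 0.18, edgeR adjusted p = 0.0988) and was called by DESeq2. Scarb2, a lysosomal membrane protein, was at 184 and 117 CPM (-0.66, SE 0.20, edgeR adjusted p = 0.168). DESeq2 also called Hgs between the sexes of PE-/-.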

How the data were processed

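RNA of whole pituitaries was made into libraries with the NEBNext Single Cell/Low Input kit. The methods of the study name cutadapt for trimming, STAR for mapping of the paired reads to mm10, and featureCounts. The deposited values were whole-number counts per gene with no normalization. The row names, an assembled locus with a symbol, show an assembly step that the sources used here do not describe. About 4 counts were assumed to stand for 1 fragment, so that the floor of 3 fragments was 12 counts. That factor is uncertain, since 15715 entries held 1 count and 7361 held 4. Strand use in counting and the annotation release are not given. Intervals and floors cover counting error only.

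Counts were tested with edgeR 4.0.16 in R 4.3.3 (filterByExpr with a minimum count of 10, trimmed mean of M-values, quasi-likelihood F test, two-sided, Benjamini-Hochberg at 0.05 over all genes), using only the libraries of the groups compared, or all 15 for the interaction. The scripts were tested on simulated data. The SE printed with an edgeR difference was derived from its F statistic, as the absolute log2 difference divided by the square root of F. Levels are CPM on scaled library sizes. Correlations used log2 CPM with a prior count of 2 and genes of at least 5 CPM. Exon lengths and overlaps came from an mm10 gene annotation, and upstream sequences from RefSeq (GRCm38.p6), which matched all 9 genes. Alternatives were DESeq2 1.42.0, its size factors, no filter, the replicate number as a block, 1 fit on all libraries, and each replicate left out. Counts of Cd63-ps and of the overlapping genes on the opposite strand were also added to those of their members, a choice made after seeing the data. To look for duplicate libraries, pairs of replicates were compared, and none held counts that agree within sampling noise.

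The members and all lists were chosen with earlier results of these data known. The named genes were the 9 members, of the other tetraspanins any past the threshold, the 6 TspanC8 members and the 2 with the largest difference in each comparison at a mean of at least 5 CPM, of the 2 other lists any past the threshold and Adam10, Ptgfrn, Igsf8, Lamp1 and Ctsd, and the 5 genes most correlated with Tspan7 and with Cd63. Lists of markers of pituitary cell types were used to check the tissue and to give levels beside a result.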

Additional observations from a re-analysis of the deposited data

Results flagged for a closer look

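The interaction term of the edgeR fit over 15 libraries passed the threshold for 2 of the 9 genes. For Tspan7 the log2 difference between PE-/- and PE+/- in females minus that in males was -1.91 (SE 0.22). For Cd63 it was -1.34 (SE 0.17). Both genes are members that were listed with results known, so the values are given without a p. They are a description of these libraries, and nothing is read from their calls.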

How the results depend on the processing

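Of the calls over all genes, those of DESeq2 rose most, and those with the replicate block, given below, fell most in each pairwise comparison. It called 228 genes between male genotypes (23 by edgeR), 1304 between female genotypes (189), 851 between the sexes of PE+/- (115), 43 between the sexes of PE-/- (9) and 371 for the interaction (31). Among the 9 genes it called 4 between female genotypes against 2 by edgeR, with Tspan13 and Cd151 added, and it added Tspan13 between the sexes of PE+/- and for the interaction. Among the other tetraspanins it called 1 against 0. Without a filter on low counts 123 genes were called between female genotypes and 66 between the sexes of PE+/-. A single fit on all 15 libraries called 37 between male genotypes, 714 between female genotypes, with 1 other tetraspanin, and 421 between the sexes of PE+/-, and added Tspan13 in the last 2. DESeq2 size factors in edgeR kept every count of the 9 genes. With each replicate left out in turn, the calls over all genes ranged from 11 to 35 between male genotypes, from 29 to 244 between female genotypes, from 34 to 113 between the sexes of PE+/-, from 7 to 27 between the sexes of PE-/- and from 7 to 71 for the interaction. Those among the 9 genes ranged from 0 to 3 between female genotypes, and those among the other tetraspanins from 0 to 1. The low end of the first came without PE-/- female replicate 3, and the high end without PE+/- female replicate 1 (with Tspan13 added) or PE-/- female replicate 1 (with Cd151 added). The 1 other tetraspanin, Tspan18, was called without PE+/- female replicate 1. No log2 difference of the 9 genes or of Tspan18 that had passed the threshold changed sign. Rows that share a symbol were not summed. Each of the 9 genes had 1 row, and Tspan15, with 2 rows, was read from the one with the most counts.

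The replicate numbers are those of the titles and nothing in the labels ties them across groups. The deviations of libraries with the same number had correlations from -0.113 to 0.168. The highest were 0.168 for replicate 1 between female genotypes and 0.105 for replicate 2 between the sexes of PE-/-. In both, the library with the same number was the closest of the other group. With the replicate block the calls were 0 between male genotypes, 1 between female genotypes, 0 between the sexes of PE+/-, 0 between the sexes of PE-/- and 11 for the interaction. Of the 9 genes 0 were then called between female genotypes and 0 between the sexes of PE+/-, and 2 for the interaction, while the differences of Tspan7 were -1.72 and 1.87 and those of Cd63 -1.33 and 1.13. The block takes residual degrees of freedom from groups of 3 and 4 libraries.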
